A study of Mus musculus with 8 samples.

Results

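CCN genes and the transcripts of the YAP-TEAD system were followed in B16F10 cells, a mouse melanoma line, in which CypD, the product of *Ppif*, had been removed or was meant to be raised. CypD is a mitochondrial cyclophilin that regulates opening of the permeability transition pore. The 10 genes were chosen by symbol from the 55414 gene rows of the expression table: the CCN genes *Ccn1*, *Ccn2*, *Ccn3* and *Ccn5*, the YAP and TAZ target genes *Ankrd1* and *Amotl2*, the coactivators *Yap1* and *Wwtr1*, the transcription factor *Tead1* and the kinase *Lats2*. All 10 rows were present. RNA was sequenced in 8 libraries, 2 in each of 4 groups, and every group had spent 24 h in its oxygen concentration. WT cells and CypD KO cells were kept at 21% oxygen, the knockout having been made by CRISPR/Cas9 with puromycin selection of clones. Control cells carried pcDNA without an insert and CypD OE cells pcDNA-CypD, both by stable transfection, and these groups were kept at 1% oxygen. Clones were selected for each engineered line, and how many clones each line holds was not given in the sources used here, so properties of a clone and of its genotype cannot be told apart. Whether the 2 libraries of a group came from separate cultures was also not given, and p-values therefore measure the spread between these libraries, which may be technical.

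CCN proteins are secreted matricellular proteins that bind integrins and proteoglycans and influence adhesion, migration and matrix production. Some of their genes, *Ccn1* and *Ccn2* above all, are switched on by YAP and TAZ (the product of *Wwtr1*), coactivators that enter the nucleus when the Hippo kinases are inactive and bind DNA through TEAD factors. LATS kinases phosphorylate YAP and TAZ and keep them in the cytoplasm, so the activity of the pathway is set largely by protein modification and location, which RNA levels do not record. In melanoma, the pathway is known for its links to invasion and to dedifferentiated states.

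*Ppif* was at 50.7 and 50.0 TPM (transcripts per 1000000 transcripts of a library) in WT, 10.4 and 12.1 TPM in CypD KO, 44.6 and 42.25 TPM in Control and 50.3 and 49.3 TPM in CypD OE. It fell by 2.07 on the log2(TPM + 1) scale in CypD KO (limma, adjusted p = 3.81e-06). By western blot, the paper reported a lack of CypD protein in the knockout and overexpression in the pcDNA-CypD line. The values here are RNA only and do not measure the protein. The libraries labelled CypD OE lay above Control by 0.19, which did not pass the threshold of an adjusted p under 0.05 (limma, adjusted p = 0.0794), and overlapped WT, so they are called by their label throughout. The difference passed the threshold in the fits without CypD KO replicate 1 (adjusted p = 0.0325) or CypD KO replicate 2 (adjusted p = 0.033). All 7 melanocyte markers were at 1 TPM or more in every library, with sums of 12433 to 20984 TPM. Summed TPM over 10 fibroblast markers was 19.8 to 22.5 in WT and 76.5 to 76.9 in CypD KO. It was 24.1 to 26.3 in Control and 11.2 to 13.0 in CypD OE. In CypD KO the sum was mostly *Col1a1* (38.5 and 41.1 TPM) and *Postn* (34.8 and 31.2 TPM). In the other groups it was mostly *Col1a2* and *Postn*. *Col1a2* went from 9.03 and 6.87 TPM in WT down to 1.09 and 2.17 TPM in CypD KO. *Dcn* and *Thy1* were at 0 in every library and *Lum* reached at most 0.08. The 6 macrophage markers summed to 3.67 to 4.48 TPM in WT, 24.1 to 25.5 in CypD KO, 4.68 to 4.9 in Control and 1.15 to 2.29 in CypD OE, mostly *Cd68*, with *Adgre1* at 0 in every library and *Ptprc* at 0.02 or less. The 6 endothelial markers summed to at most 1.2 TPM. Of the 7 melanocyte markers, 1 was higher and 5 lower in CypD KO minus WT, where 48.4% of all genes tested were called, and 1 was higher and 4 lower in CypD OE minus Control, where 37.4% were called. Of 4 fibroblast markers tested, 2 were higher and 2 lower in CypD KO, and 0 higher and 3 lower in CypD OE. Of the latter, *Postn* lost its call without Control replicate 1 (adjusted p = 0.0725), without CypD OE replicate 2 (adjusted p = 0.0765) and with only the libraries compared (adjusted p = 0.0563). *Cd68* and *Lyz2*, the 2 macrophage markers tested, were higher in CypD KO, but *Lyz2* passed the expression filter only through that group and lost its call without WT replicate 2 (adjusted p = 0.0635) or CypD KO replicate 1 (adjusted p = 0.0528), and *Cd68* was lower in CypD OE. In bulk RNA, fewer cells of a type and less RNA per cell cannot be told apart.

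The promoters of 3 of the genes are shown because TEAD factors bind the sequence GGAATG, and these genes differ in how often they carry it next to the start of transcription. Each is the 250 bases upstream of the start of the canonical transcript (GRCm39, GENCODE M39), written 5′ to 3′ on the strand of the gene, with every GGAATG or its reverse complement CATTCC in capitals.
Ccn1, chr3:145355739-145355988, minus strand: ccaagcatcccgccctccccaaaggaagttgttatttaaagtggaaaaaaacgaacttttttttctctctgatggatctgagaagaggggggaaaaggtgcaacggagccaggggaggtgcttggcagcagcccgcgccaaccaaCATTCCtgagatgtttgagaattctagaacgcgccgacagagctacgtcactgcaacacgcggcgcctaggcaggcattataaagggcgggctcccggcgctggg
Amotl2, chr9:102594617-102594866, plus strand: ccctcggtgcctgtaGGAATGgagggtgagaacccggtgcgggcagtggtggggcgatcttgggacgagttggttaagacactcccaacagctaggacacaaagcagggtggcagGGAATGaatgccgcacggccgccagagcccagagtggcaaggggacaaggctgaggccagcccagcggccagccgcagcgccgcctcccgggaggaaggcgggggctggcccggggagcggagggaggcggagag
Ankrd1, chr19:36097507-36097756, minus strand: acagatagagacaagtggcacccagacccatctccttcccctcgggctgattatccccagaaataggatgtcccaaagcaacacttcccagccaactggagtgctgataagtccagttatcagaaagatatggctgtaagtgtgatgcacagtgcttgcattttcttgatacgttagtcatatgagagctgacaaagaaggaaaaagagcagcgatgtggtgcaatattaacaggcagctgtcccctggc

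Of all 21770 protein-coding promoters of this length, 2637 (12.1%) held GGAATG on either strand. Matches are given for 9 of the 10 genes. *Amotl2* had 2 matches, at positions -235 to -230 and -135 to -130 relative to the start, and *Ccn1* had 1, at -105 to -100. *Yap1*, *Wwtr1* and *Tead1* each had 1 match, whereas *Ccn3*, *Ccn5*, *Ankrd1* and *Lats2* had 0 in this window. The AP-1 motif TGANTCA, found in 6.17% of all promoters, and the CArG box, found in 1.4%, were in none of the 9 windows. The core of the hypoxia response element, ACGTG or GCGTG on either strand, was present in the windows of *Ccn1*, *Yap1*, *Wwtr1*, *Tead1* and *Lats2* and in 41.3% of all promoters. A match is a run of letters only, and binding was not measured.

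Loss of CypD at 21% oxygen was accompanied by a rise of *Ccn1*, *Ccn2* and *Ccn3*. *Ccn1* (chr3:145352720-145355738, minus strand, 5 exons), which encodes CYR61, an integrin ligand of the matrix, was at 36.7 and 39.4 TPM in WT, 214 TPM in both CypD KO libraries, 48.9 and 50.4 TPM in Control and 60.9 and 62.6 TPM in CypD OE. No 2 groups overlapped, and the order from high to low was CypD KO, CypD OE, Control, WT. The mean in CypD KO was 5.63 times that in WT, a log2 difference of 2.46 ± 0.05 (SE; n = 2 libraries a group; limma, adjusted p = 6.57e-07). Among the 13526 genes tested, *Ccn1* ranked 90 by increase.

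*Ccn2* (chr10:24471333-24474900, plus strand, 5 exons), which encodes CTGF, a mediator of fibrosis and a classical YAP target, rose more. Its TPM were 9.01 and 11.7 in WT, 121 and 122 in CypD KO, 10.6 and 12.1 in Control and 29.9 and 30.0 in CypD OE. CypD KO stood far above the rest and CypD OE above both Control and WT, which overlapped. The CypD KO mean was 11.7 times the WT mean, a log2 difference of 3.44 ± 0.12 (SE; limma, adjusted p = 3.3e-06), and *Ccn2* ranked 21 of 13526 genes by increase. Because *Ccn2* rose more than *Ccn1*, the ratio of *Ccn1* to *Ccn2* TPM went from 4.07 and 3.36 in WT to 1.77 and 1.76 in CypD KO.

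*Ccn3* (chr15:54609012-54620154, plus strand), which encodes NOV, a family member known to oppose some actions of CTGF, was nearly silent outside the knockout. It was at 0.20 and 0.22 TPM in WT, 4.57 and 4.83 TPM in CypD KO, 0.87 and 0.57 TPM in Control and 0.31 and 0.46 TPM in CypD OE. The WT values stand for approximately 12.1 and 12.2 fragments and the CypD KO values for approximately 289.2 and 289.0. The ratio of means was 22.4, and the log2(TPM + 1) difference, which understates the change of low genes, was 2.24 ± 0.17 (SE; limma, adjusted p = 7.67e-05). *Ccn3* passed the expression filter only through the CypD KO libraries, so a call in this comparison carries little weight of its own.

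*Ccn5* (chr2:163662753-163675066, plus strand), which encodes WISP2, the member without the C-terminal domain of the family, was not detectable at this depth. It was listed at 0 in 6 libraries, at 0.06 TPM in 1 CypD KO library and at 0.05 TPM in 1 CypD OE library, each about 1 fragment, and was not tested. A count of 0 allows a level of up to 0.159 to 0.186 TPM in these 6 libraries, the value of 3 fragments in each. *Ccn6* (WISP3) lay between 0 and 0.23 TPM in the 8 libraries and was not tested either.

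**Figure D1:**
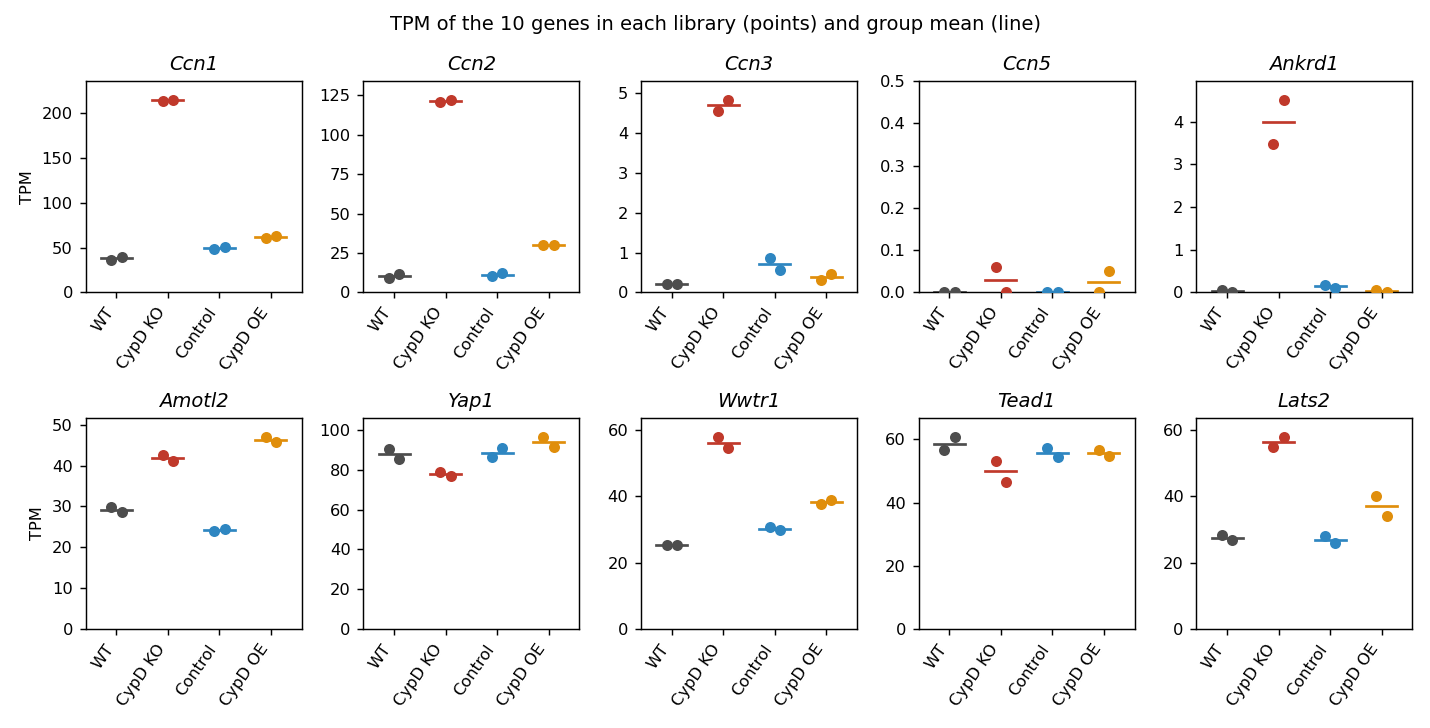
TPM of the 10 genes in the 8 libraries, with 1 panel a gene, a linear axis from 0 that differs between panels, a point for each library and a line for each group mean. *Ccn1*, *Ccn2*, *Ccn3* and *Ankrd1* stand out in CypD KO, *Amotl2* is highest in CypD OE, and *Yap1* lies between 76.7 and 96.5 TPM in all libraries.

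At 1% oxygen, the libraries labelled CypD OE also held more *Ccn1* and *Ccn2* than Control, by smaller amounts. *Ccn2* was 2.64 times as high, a log2 difference of 1.33 ± 0.12 (SE; limma, adjusted p = 2.56e-04). *Ccn1* was 1.24 times as high, a difference of 0.31 ± 0.05 (SE; limma, adjusted p = 0.00258). For *Ccn3* the difference was -0.31, with a 95% confidence interval from -0.71 to 0.09 (limma, adjusted p = 0.197). The ratio of *Ccn1* to *Ccn2* was 4.62 and 4.16 in Control and 2.03 and 2.09 in CypD OE.

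*Ccn4*, which encodes WISP1 and is known as a WNT target, moved in opposite directions in these comparisons. It was at 33.6 and 32.0 TPM in WT, 50.8 and 49.5 TPM in CypD KO, 45.4 and 47.9 TPM in Control and 8.12 and 8.72 TPM in CypD OE. The groups did not overlap, and CypD OE lay far below the others. *Ccn4* rose by 0.60 ± 0.06 in CypD KO (SE; limma, adjusted p = 2.8e-04) and its log2 difference in CypD OE was -2.34 ± 0.06 (SE; limma, adjusted p = 1.52e-06), rank 53 of 13526 by decrease. The summed TPM of the 6 CCN genes was 79.6 and 83.6 in WT, 390 and 391 in CypD KO, 106 and 111 in Control and 99.4 and 102 in CypD OE. *Ccn4* made up 38.3% to 42.2% of that sum in WT, 12.7% to 13.0% in CypD KO, 42.9% to 43.1% in Control and 8.17% to 8.55% in CypD OE. *Ccn1* and *Ccn2* made up the greater part of the remainder in every library.

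**Figure D2:**
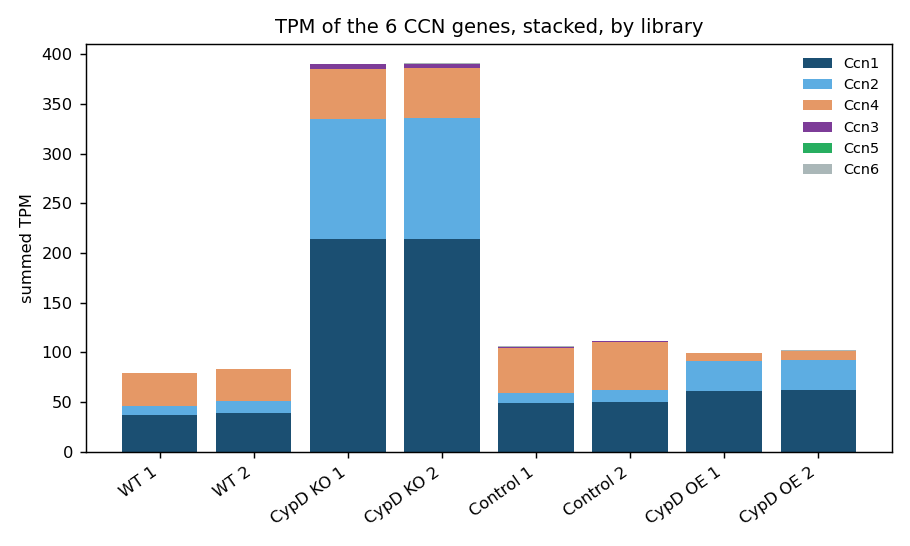
Stacked TPM of the 6 CCN genes in each of the 8 libraries, on a linear axis from 0. The CypD KO sums of 390 and 391 TPM are mostly *Ccn1* and *Ccn2*, and *Ccn4* shrinks to 8.17% to 8.55% of the sum in CypD OE.

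The target genes outside the CCN family followed the knockout to different degrees. *Ankrd1* (chr19:36089352-36097506, minus strand), which encodes a nuclear ankyrin repeat protein of striated muscle and is a standard readout of YAP activity, was at 0.06 and 0 TPM in WT, 3.48 and 4.50 TPM in CypD KO, 0.18 and 0.11 TPM in Control and 0.05 and 0 TPM in CypD OE. CypD KO lay above all other libraries, and WT overlapped CypD OE. In fragments, CypD KO held approximately 163 against 1 in WT, a ratio of 154.1 with a 95% interval from 27.3 to 6123.7 that covers counting error only. The log2(TPM + 1) difference was 2.27 ± 0.18 (SE; limma, adjusted p = 1.06e-04). Like *Ccn3*, *Ankrd1* passed the filter only through CypD KO. In CypD OE minus Control the difference was -0.16 (95% confidence interval -0.60 to 0.28; limma, adjusted p = 0.543).

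*Amotl2* (chr9:102593836-102610617, plus strand), which encodes an angiomotin that binds YAP at cell junctions, is both a target and an inhibitor of the pathway. It was at 29.8 and 28.7 TPM in WT, 42.6 and 41.2 TPM in CypD KO, 24.1 and 24.4 TPM in Control and 47.0 and 45.7 TPM in CypD OE. No groups overlapped, and here CypD OE, not CypD KO, was highest. *Amotl2* rose by 0.50 ± 0.05 in CypD KO (SE; limma, adjusted p = 2.4e-04), 1.43 times the WT mean. It rose by 0.91 ± 0.05 in CypD OE (SE; limma, adjusted p = 3.38e-05), 1.91 times the Control mean.

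*Lats2* (chr14:57926960-57995845, minus strand), the kinase that phosphorylates YAP and TAZ and is itself a target gene, rose in both comparisons. Its TPM were 28.2 and 26.9 in WT, 54.7 and 57.8 in CypD KO, 28.0 and 25.8 in Control and 40.0 and 34.1 in CypD OE. WT and Control overlapped, and CypD OE lay between them and CypD KO. The rise was 1.00 ± 0.09 in CypD KO (SE; limma, adjusted p = 1.29e-04) and 0.45 ± 0.09 in CypD OE (SE; limma, adjusted p = 0.00687). *Lats1*, the related kinase, was between 42.3 and 49.6 TPM in all libraries.

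Of the coactivators, the transcript of TAZ rose and that of YAP did not. *Wwtr1* (chr3:57363067-57483331, minus strand) was at 25.3 and 25.5 TPM in WT, 57.9 and 54.5 TPM in CypD KO, 30.7 and 29.9 TPM in Control and 37.6 and 38.9 TPM in CypD OE. The groups did not overlap and kept the order CypD KO, CypD OE, Control, WT, as for *Ccn1*. *Wwtr1* rose by 1.12 ± 0.05 in CypD KO (SE; limma, adjusted p = 1.06e-05), 2.22 times the WT mean, and by 0.33 ± 0.05 in CypD OE (SE; limma, adjusted p = 0.00312), 1.26 times the Control mean.

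*Yap1* (chr9:7932000-8004661, minus strand) was at 90.5 and 85.5 TPM in WT, 78.9 and 76.7 TPM in CypD KO, 86.2 and 90.8 TPM in Control and 96.5 and 91.3 TPM in CypD OE. CypD KO lay slightly below every other library, and Control overlapped WT. The difference in CypD KO was -0.18 ± 0.05 (SE; limma, adjusted p = 0.0251). That call was lost without WT replicate 1 (adjusted p = 0.124), without CypD KO replicate 1 (adjusted p = 0.0612), without CypD KO replicate 2 (adjusted p = 0.112) and without the trend in the limma fit (adjusted p = 0.0599). In CypD OE the difference was 0.08, with a 95% confidence interval from -0.03 to 0.20 (limma, adjusted p = 0.234). *Yap1* exceeded *Wwtr1* by 3.58 and 3.36 times in WT, 1.36 and 1.41 times in CypD KO, 2.81 and 3.04 times in Control and 2.57 and 2.35 times in CypD OE, in TPM.

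*Tead1* (chr7:112278522-112506014, plus strand), which encodes a DNA-binding partner of both coactivators, was at 56.5 and 60.7 TPM in WT, 53.2 and 46.6 TPM in CypD KO, 57.2 and 54.3 TPM in Control and 56.7 and 54.8 TPM in CypD OE. WT overlapped CypD OE, and CypD OE overlapped Control. The difference in CypD KO was -0.23 ± 0.07 (SE; limma, adjusted p = 0.0381), and it was lost in 7 of the 8 fits that left out 1 library, all but that without CypD KO replicate 1, with adjusted p from 0.0522 to 0.176. It was also lost with no filter on low TPM (adjusted p = 0.0738), without the trend (adjusted p = 0.0671) and with only the WT and CypD KO libraries (adjusted p = 0.0942). In CypD OE the difference was 0.00 (95% confidence interval -0.17 to 0.18; limma, adjusted p = 0.992). *Tead4* rose in both comparisons, by 0.86 and 0.63, and *Tead1* made up 55.9% to 57.0% of the summed TPM of the 4 TEAD genes in WT and 43.6% to 45.5% in CypD KO. *Tead4* was at 13.6 and 14.2 TPM in WT, 9.65 and 10.7 TPM in Control and 15.6 and 16.9 TPM in CypD OE.

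In all, 9 of the 10 genes could be tested. In CypD KO minus WT, 7 were higher and 2 lower, where 48.4% of the 13526 genes tested were called, 30.1% higher and 18.4% lower. Without *Ccn3* and *Ankrd1*, 5 were higher and 2 lower of 7. The CypD KO libraries also had the highest sums of fibroblast and macrophage markers, with *Dcn*, *Thy1* and *Adgre1* at 0. These sums were mostly *Col1a1*, *Postn* and *Cd68*. The fibroblast markers *Col1a2* and *Pdgfrb* were called lower in CypD KO, with differences of -1.79 and -0.70. In CypD OE minus Control, 5 of the 9 tested genes were higher, 0 lower and 4 were not called. Over all genes, 37.4% were called there, 19% higher and 18.3% lower. The median log2 difference of the tested genes was 1.12 in the knockout, beside 0.09 for all genes. It was 0.31 in CypD OE, beside 0.002 for all genes. Without *Ccn3* and *Ankrd1*, which passed the filter only through CypD KO, the median was 1.00 in the knockout and 0.33 in CypD OE. The rises of *Ccn1*, *Ccn2*, *Amotl2*, *Wwtr1* and *Lats2* passed the threshold in both comparisons. How many of all genes were higher in both was not counted. The comparisons share no libraries, but the main fit gave them a shared estimate of spread. All 5 genes kept their direction in every alternative fit. The smallest rise was 0.39 in the knockout, for *Amotl2*, and 0.29 in CypD OE, for *Ccn1*.

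**Figure D3:**
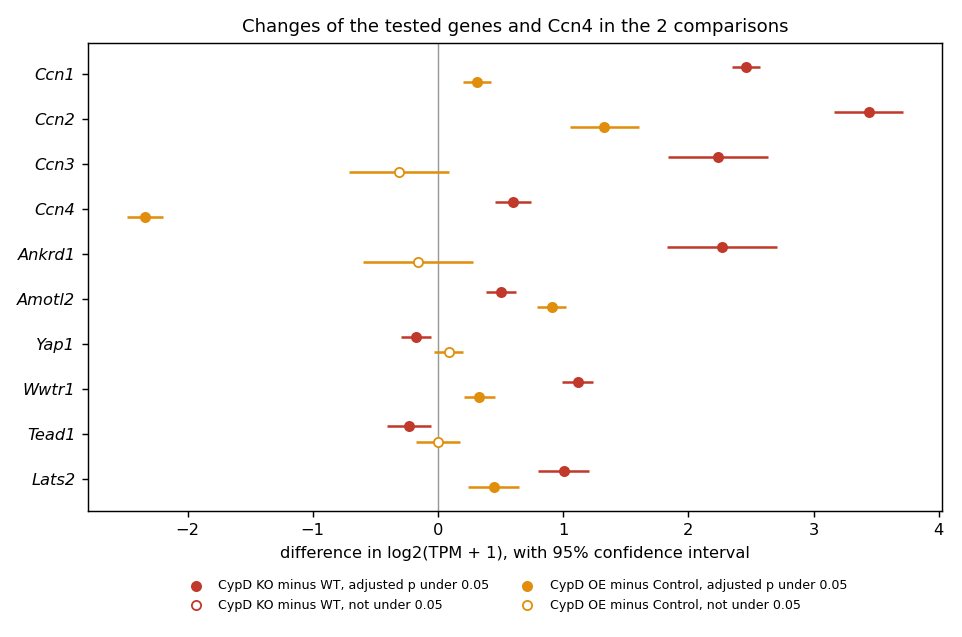
Difference in log2(TPM + 1) with its 95% confidence interval for the 9 tested genes and *Ccn4*, in CypD KO minus WT and CypD OE minus Control, with filled points for an adjusted p under 0.05. *Ccn2* is farthest to the right in both comparisons, and *Ccn4* is at 0.60 in one and -2.34 in the other.

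These differences were compared directly, as the CypD KO minus WT difference less the CypD OE minus Control difference. The test was added after the values had been seen, and 46.2% of all genes passed it. The knockout change was larger by 2.15 for *Ccn1* (limma, adjusted p = 2.35e-06), by 2.11 for *Ccn2* (limma, adjusted p = 1.07e-04), by 0.79 for *Wwtr1* (limma, adjusted p = 2.22e-04) and by 0.56 for *Lats2* (limma, adjusted p = 0.00895). For *Ccn3* and *Ankrd1*, which passed the filter only through CypD KO, the contrast was 2.54 and 2.43. Across the alternative fits the contrast ran from 2.42 to 4.70 for *Ccn3* and from 2.28 to 5.99 for *Ankrd1*. For *Ccn4* it was 2.94, the distance between a rise of 0.60 in CypD KO and the difference of -2.34 in CypD OE, which was the larger of its changes. *Amotl2* went the other way, with a contrast of -0.40 (limma, adjusted p = 0.00335). For *Yap1* it was -0.26 (limma, adjusted p = 0.0219), a call lost without WT replicate 1 (adjusted p = 0.0666), CypD KO replicate 2 (0.0684), Control replicate 1 (0.0670) or CypD OE replicate 1 (0.0701) and without the trend (0.0541). For *Tead1* it was -0.23 (95% confidence interval -0.48 to 0.02; limma, adjusted p = 0.113), and passed the threshold without CypD KO replicate 1 (adjusted p = 0.0347) and after median-of-ratios rescaling (adjusted p = 0.0292). These comparisons also differ in oxygen, vector and selection, which cannot be told apart from the genotype here.

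Comparisons of Control and of CypD OE with WT share the WT libraries with the knockout comparison and mix oxygen with vector and selection, which cannot be told apart. In Control minus WT, where 24.2% of genes were called, *Ccn1* was higher by 0.38 (limma, adjusted p = 0.00218) and *Wwtr1* by 0.25 (adjusted p = 0.0157), and *Amotl2* was lower, with a difference of -0.26 (adjusted p = 0.0106). *Wwtr1* lost its call without any 1 of the WT or Control libraries (adjusted p 0.0516 to 0.0759). *Amotl2* lost it without WT replicate 1 (adjusted p = 0.0549) or Control replicate 1 (adjusted p = 0.0525). *Ccn3* differed by 0.50 (adjusted p = 0.0735) and passed the threshold with a pseudocount of 0.1, at 1.38 (adjusted p = 0.0387), and without the trend (adjusted p = 0.0241). In CypD OE minus WT, where 27.7% of genes were called, *Ccn2* was higher by 1.46, *Ccn1* by 0.69, *Amotl2* by 0.65, *Wwtr1* by 0.58 and *Lats2* by 0.41, and *Ccn4* differed by -1.84. The *Lats2* call was lost without WT replicate 2 (difference 0.38) or CypD OE replicate 1 (0.30). It was also lost with only the libraries compared (limma, adjusted p = 0.0539).

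Counted with the 5 genes already described, the Hippo kinases, their scaffolds and the TEAD factors were called about as often as other genes. Of 34 genes listed, 30 were tested, 5 of them already described. In CypD KO, 10 were higher, 4 lower and 16 not called, with a median of 0.14, where 48.4% of all genes were called. Without the 5 genes, 7 of 25 were higher and 2 lower, with a median of 0.13, so fewer were called than among all genes. *Vgll4*, which encodes a protein that competes with YAP for TEAD, rose most, by 1.22, from 49.1 and 48.8 TPM in WT to 117 and 115 TPM in CypD KO. *Map4k4*, a kinase that can activate LATS, was lower by a difference of -0.19 (limma, adjusted p = 0.00817), lost without CypD KO replicate 1 (adjusted p = 0.0511). *Limd1*, a LIM protein that restrains LATS, differed by -0.18 (limma, adjusted p = 0.0489). That call was lost in 6 of the 8 fits without 1 library, where the difference was -0.19 to -0.18. It was also lost with no filter on low TPM (adjusted p = 0.0645), without the trend (adjusted p = 0.0611) and with only the libraries compared (adjusted p = 0.0531). In CypD OE, 11 were higher, 2 lower and 17 not called, with a median of 0.14, where 37.4% of all genes were called. Without the 5 genes, 8 of 25 were higher and 2 lower there, with a median of 0.13. *Amotl1*, a paralogue of *Amotl2*, rose by 0.61. *Wwc1*, which encodes the upstream activator KIBRA, differed by 0.89 (limma, adjusted p = 0.0294). Its call was lost without Control replicate 2 (difference 0.63), CypD OE replicate 1 (0.92) or CypD OE replicate 2 (0.86). It was also lost with no filter on low TPM (adjusted p = 0.0802) and without the trend (adjusted p = 0.0519). The Hippo kinase gene *Stk4* differed by -0.65 and its adaptor *Sav1* by -0.23, both called.

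**Figure D4:**
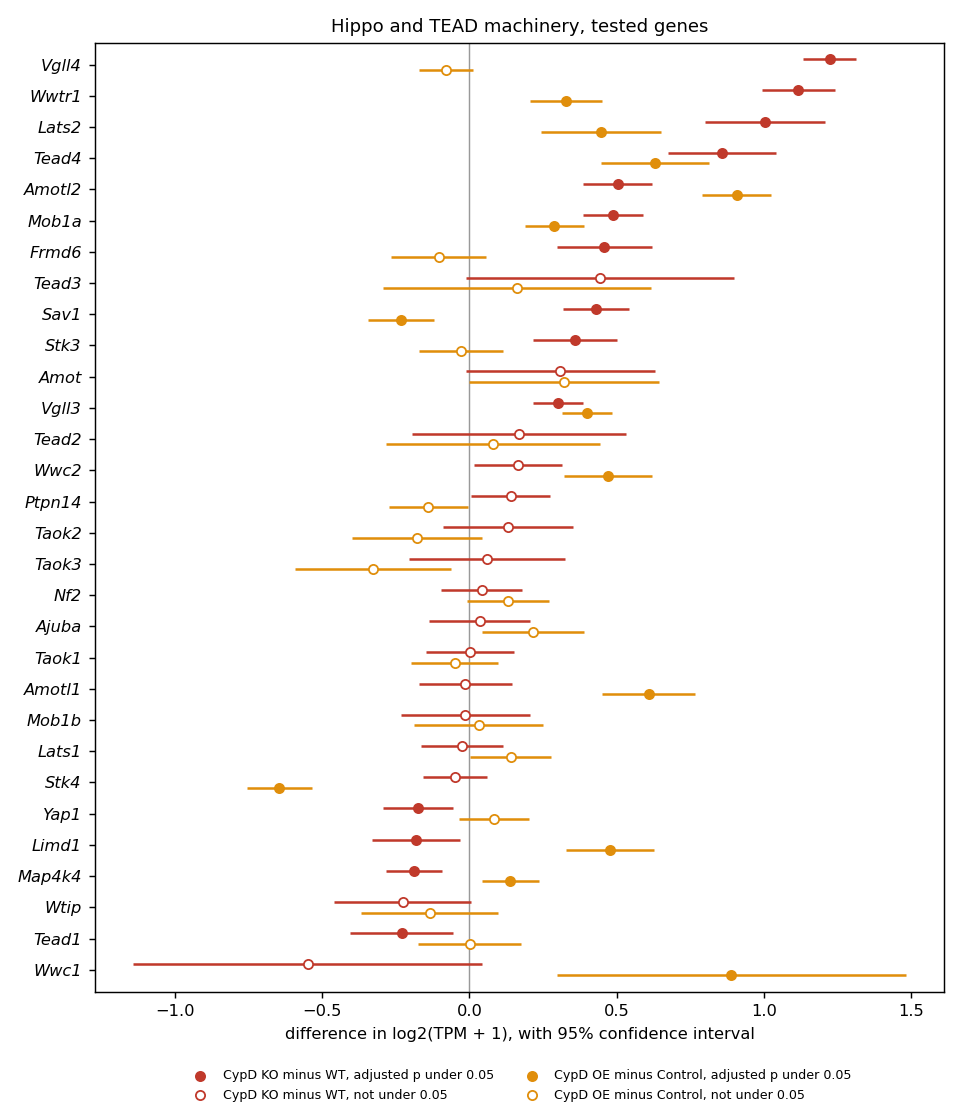
Difference in log2(TPM + 1) with its 95% confidence interval for the 30 tested genes of the Hippo and TEAD list, in CypD KO minus WT and CypD OE minus Control, ordered by the knockout difference, with filled points for an adjusted p under 0.05. *Vgll4*, *Wwtr1* and *Lats2* lead in the knockout, *Amotl2* and *Wwc1* in CypD OE, and most points lie within 0.5 of 0.

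A list of 22 YAP and TAZ target genes, 5 of them described above, had 18 tested. In CypD KO, 13 were higher, 1 lower and 4 not called, with a median of 0.75, where 48.4% of all genes were called. This count includes *Ankrd1*, which passed the filter only through CypD KO, and without it 12 of 17 were higher, with a median of 0.50. Without the 5 genes, 8 of 13 were higher and 1 lower, with a median of 0.43. *Myof*, which encodes the membrane repair protein myoferlin, rose by 2.66, from 16.5 and 14.6 TPM to 103 TPM in both knockout libraries. *Gadd45a*, a stress and growth arrest gene, rose by 2.46. *Ccdc80*, which encodes a matrix protein, differed by -1.86, from 3.30 and 4.52 TPM in WT to 0.27 and 0.42 TPM. In CypD OE, 9 were higher, 1 lower and 8 not called, with a median of 0.33. Without the 5 genes, 5 of 13 were higher and 1 lower, with a median of 0.27. Of all genes tested, 37.4% were called in this comparison, 19% higher and 18.3% lower. *Myof* rose by 0.91, *F3*, which encodes tissue factor, rose by 0.80, and *Ccdc80* differed by -1.91.

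**Figure D5:**
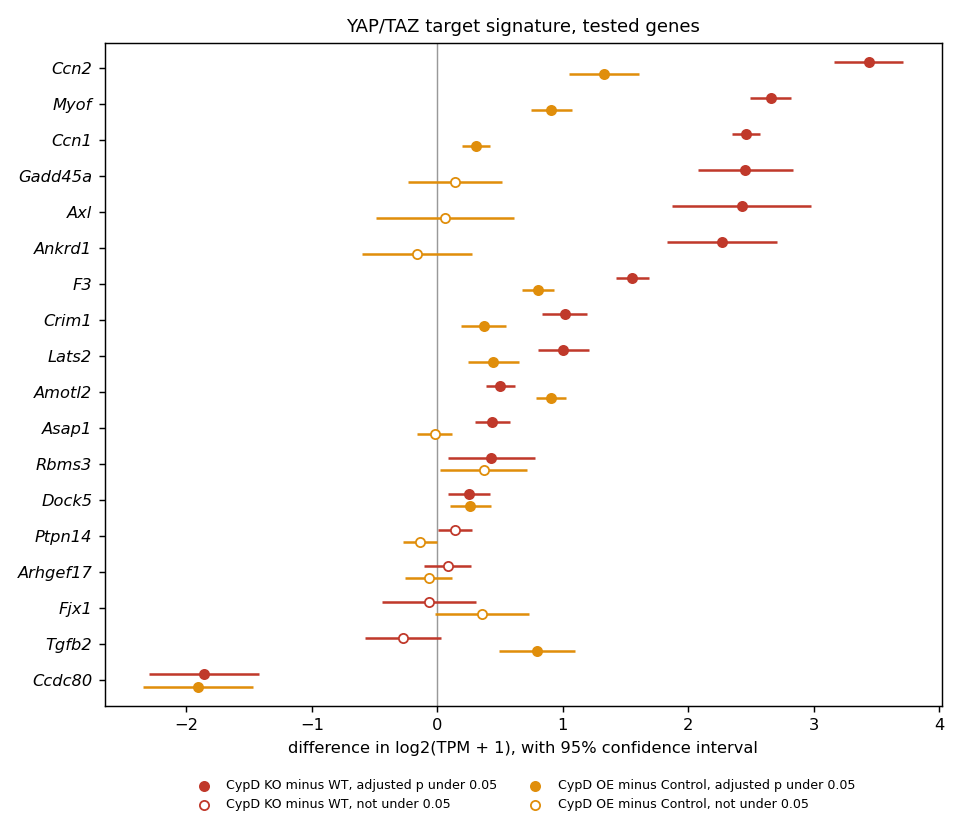
Difference in log2(TPM + 1) with its 95% confidence interval for the 18 tested genes of the YAP and TAZ target list, in CypD KO minus WT and CypD OE minus Control, ordered by the knockout difference, with filled points for an adjusted p under 0.05. *Ccn2* leads in both, and *Ccdc80* lies at -1.86 and -1.91.

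CCN proteins act through integrins and other receptors, and most of the receptor genes rose in the knockout. Of 12 genes listed, 10 were tested, and in CypD KO 8 were higher and 1 lower, with a median of 0.97, where 48.4% of all genes were called. *Itga5*, the integrin subunit that pairs with *Itgb1* in the fibronectin receptor, rose by 2.97, from 3.86 and 3.41 TPM to 36.5 and 34.2 TPM. *Itgb1* rose by 1.49, *Itgb3* by 1.62 and the proteoglycan gene *Sdc4* by 1.63, while the laminin receptor subunit *Itga6* differed by -0.55. In CypD OE, 2 were higher, 4 lower and 4 not called, with a median of -0.04, where 37.4% of all genes were called. *Itgb5* rose by 1.25 and the WNT coreceptor *Lrp6* by 0.41, and the integrin subunits *Itgav* and *Itgb3* differed by -0.79 and -0.72. *Itgb5* was at 17.7 and 16.7 TPM in WT, 8.72 and 9.11 TPM in Control and 21.8 and 23.3 TPM in CypD OE. *Notch1* differed by -0.85 (limma, adjusted p = 0.0205) and the endocytic receptor *Lrp1* by -0.49 (limma, adjusted p = 0.0214). Both calls were lost without Control replicate 2 (differences -0.71 and -0.42) or CypD OE replicate 2 (-0.70 and -0.38). The *Lrp1* call was also lost with no filter on low TPM (adjusted p = 0.0586) and with only the libraries compared (adjusted p = 0.0556).

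Genes of the TGF-beta pathway, another known inducer of *Ccn1* and *Ccn2*, were higher in 7 of 11 cases and lower in 1 in each comparison, with medians of 0.93 in CypD KO and 0.40 in CypD OE, where 48.4% and 37.4% of all genes were called. In the knockout, the ligand gene *Tgfb1* rose by 2.12, from 2.42 and 2.74 TPM in WT to 15.1 and 14.1 TPM, *Skil*, a feedback inhibitor, by 1.37, and the receptor gene *Tgfbr2* by 1.20, while *Tgfbr1* differed by -0.51. In CypD OE, *Tgfb2* rose by 0.80 and *Skil* by 0.80. *Tgfb2* was at 6.42 and 5.53 TPM in WT, 3.92 TPM in both Control libraries and 8.28 and 6.87 TPM in CypD OE. *Tgfb1* differed by 0.68 (limma, adjusted p = 0.02). It was at 1.43 and 0.81 TPM in Control and 2.15 and 2.56 TPM in CypD OE, which overlapped WT. Its call was lost without Control replicate 2 (difference 0.46) or CypD OE replicate 2 (0.59). The call was also lost with no filter on low TPM (adjusted p = 0.0639) and with only the libraries compared (adjusted p = 0.0732). *Smad3*, which encodes a signal transducer of the pathway, differed by -0.49 (limma, adjusted p = 0.0147), lost without Control replicate 1 or CypD OE replicate 2 (adjusted p 0.0713 to 0.0766). With Control replicate 1 or CypD OE replicate 2 left out, 5 rather than 8 of the 11 genes were called.

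Over the 8 libraries, the profiles of log2(TPM + 1) were also compared with *Ccn2* and *Ccn1* by Pearson correlation among 9923 genes with a mean of at least 5 TPM. These values describe only 4 groups, with *Ccn2*, *Ccn1* and the genes closest to them all highest in the CypD KO libraries. Closest to *Ccn2* were *Cbfb* (r = 0.998), *Sppl2a* (0.998), *Jade1* (0.996), *Gnb4* (0.996) and *Crim1* (0.995), the last also a listed YAP target. Closest to *Ccn1* were *Angptl2* (0.9996), the fibronectin gene *Fn1* (0.998), *Dtna* (0.998), *Nppb* (0.997) and *Timp2* (0.997). *Fn1* went from 28.4 and 31.1 TPM in WT to 289 and 286 TPM in CypD KO. With *Ccn2*, r was 0.973 for *Ccn1*, 0.978 for *Wwtr1*, 0.978 for *Lats2*, 0.743 for *Amotl2*, -0.66 for *Yap1* and -0.76 for *Tead1*.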

How the data were processed

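Total RNA of 8 B16F10 libraries was depleted of ribosomal RNA and sequenced in paired-end reads of 150 bases. Per the submitters' processing notes, the tools were cutadapt 3.4, STAR 2.7.8a, RSEM 1.3.1 and DESeq2 1.26.0, with build GRCm39. The deposited values are TPM, scaled by the authors to a fixed total per library, so a rise of abundant transcripts lowers all other values, and RSEM divides reads shared by similar genes. TPM are not counts, so limma 3.58.1 (R 4.3.3) was used on log2(TPM + 1) for the 13526 genes that reached 1 TPM in 2 or more of the 8 libraries, with 4 group means, a trend in mean expression, two-sided tests, Benjamini-Hochberg adjustment over all genes tested and a threshold of 0.05. An exact permutation test of 2 against 2 libraries cannot go below p = 0.333 and was not used. All columns of the table were matched to samples (0 left over).

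Depth was estimated from low values: 1 fragment was worth 0.082 to 0.0985 TPM at 1000 effective bases, with 81.9% to 84.9% of low values within 0.15 of a whole number against 30.0% if evenly spread. Fragment numbers given are such estimates, and intervals on them cover counting error only. Between 17942 and 19692 genes were above 0 per library. Positions and promoters come from GENCODE M39 on GRCm39, which held 54749 (98.8%) of the 55414 gene identifiers.

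The 10 genes and the gene lists were chosen with earlier results of these data known. Genes named are the 10, the other CCN genes, *Ppif*, up to 4 called genes with the largest rise and up to 4 with the largest fall in each list and comparison, and the 5 genes most like *Ccn2* and *Ccn1*. Some genes and sequences under this rule are not reported here. Other genes appear by level only, as members of marker lists or families. Alternatives were a pseudocount of 0.1, median-of-ratios rescaling, no filter, a 5 TPM filter, fitting only the 4 libraries compared, a replicate block, no trend, and leaving out each library in turn. The fitting code was tested on simulated data.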

Additional observations from a re-analysis of the deposited data

How the results depend on the processing

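Calls for the 10 genes depended little on the processing in CypD KO minus WT and CypD OE minus Control, apart from *Yap1* and *Tead1* in the knockout. Leaving out 1 library at a time gave 7 to 8 of the genes called in CypD KO minus WT, 5 in every fit of CypD OE minus Control, 1 to 3 in Control minus WT and 4 to 5 in CypD OE minus WT, and 5127 to 6414, 3630 to 4958, 2009 to 2900 and 2295 to 3558 genes called over the whole table. With only the 4 libraries of Control minus WT, 1 of the genes was called instead of 3, and 1981 genes instead of 3269. The replicate block called 9, 5, 3 and 5 of the genes and 6285, 4735, 2886 and 3417 genes over the whole table in these comparisons, and it ended the call of *Limd1* in CypD KO minus WT (adjusted p = 0.0581). Replicate numbers come from library names, and deviations of same-numbered libraries correlated at 0.108 (WT and CypD KO) and -0.002 (Control and CypD OE), so the block rests on a shared number only. The sizes of the *Ccn3* and *Ankrd1* differences did depend on the processing. In CypD KO minus WT, *Ccn3* ran from 2.1642 to 3.9529 and *Ankrd1* from 2.1215 to 5.0037. Both were highest with a pseudocount of 0.1. In CypD OE minus Control, *Ccn3* ran from -0.7505 to -0.183 and *Ankrd1* from -0.9854 to -0.1154, without a call. The 5 TPM filter left both genes out. Signs turned only in differences that were not called. For *Tead1* in CypD OE minus Control, rescaling gave -0.0037 and leaving out 1 library gave -0.0357 to 0.0388. In Control minus WT, *Yap1* came to -0.0125 with rescaling and to between -0.0313 and 0.0484 without 1 library, *Ccn2* to between -0.0454 and 0.3003, and *Lats2* to between -0.0912 and 0.0222. For *Ankrd1* in CypD OE minus WT the range was -0.0489 to 0.0352. Rescaling moved the median of all genes in CypD KO minus WT from 0.09 to -0.01. The cause was not tested. Where a fit left 1 library in a group, that library was assumed to vary like the other groups. Levels under about 3 fragments cannot be distinguished at this depth.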
